A study of Mus musculus with 2 samples.

Results

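The nuclear genes of oxidative phosphorylation were taken as all annotated symbols that begin as a subunit of respiratory complexes I to V or a complex III assembly factor (Nduf, Sdh, Uqcr, Uqcc, Cox4 to Cox8 and Atp5 symbols), 113 of the 50768 genes counted. By role they comprised 36 genes of complex I, 4 of complex II, 8 of complex III, 6 complex III assembly factors, 20 of complex IV (with Ndufa4 and Ndufa4l2), 18 of complex V and 21 pseudogenes or gene copies. They were measured by single-cell RNA sequencing in submandibular and sublingual glands of 20-week-old female mice of the inbred strain NOD/ShiLtJ, a model of Sjögren's disease that develops salivary gland inflammation and also diabetes, and of outbred CD1 mice, the control. Neither group received a treatment, and both carried the same batch label. For each strain, glands of several mice were pooled into 1 library, after cells carrying EpCAM or Ter119 and dead cells had been depleted. There is therefore no replicate: a difference between the strains cannot be told apart from a difference between these libraries, no test was made, and every 95% interval covers counting error only.

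Oxidative phosphorylation passes electrons from NADH through complex I, and from succinate through complex II, to complexes III and IV, which reduce oxygen. The proton gradient built by complexes I, III and IV drives ATP synthesis by complex V. Most subunits are encoded in the nucleus, a few core ones in mitochondrial DNA, and complex II is entirely nuclear. The striated ducts of salivary glands, which modify saliva by ion transport, are known for their dense mitochondria.

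Barcodes with at least 500 unique molecular identifiers (UMIs, 1 per captured transcript) and 300 genes were kept: 6500 in NOD/ShiLtJ (median 5719.5 UMIs) and 7014 in CD1 (median 6495 UMIs), of which 18 sequences occurred in both (left out, they moved no summed level beyond counting error). Barcodes were classed from UMIs of marker genes, which gave 2034 and 132 T-like, 382 and 278 NK-like, 713 and 2982 macrophage-like and 1064 and 2895 endothelial-like barcodes in NOD/ShiLtJ and CD1, respectively. All markers of the own list were detected in each of these 4 classes in both libraries. Among the 10 leading genes of the 132 CD1 T-like barcodes, 5 were T cell markers, but Stab2 ranked first. Epithelial-like barcodes, of a lineage that the EpCAM depletion removes, numbered 6 and 56. Levels are given as CPM, the UMIs of a gene over all UMIs of the class, on the scale where 10000 CPM is 1% of the UMIs.

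Nuclear OXPHOS genes took about 1% of the UMIs in immune and endothelial classes, and their summed level differed between classes by much less than between any of them and the epithelial-like barcodes. In NOD/ShiLtJ the sum was 12243 CPM in NK-like (95% interval of the log2 ratio to T-like 0.12 to 0.15), 11758 in macrophage-like, 11133 in T-like, 8915 in the 731 B-like, 8567 in endothelial-like and 7552 CPM in the 54 fibroblast-like barcodes. In CD1 it was 13785 in NK-like, 11686 in T-like, 11127 in endothelial-like and 10550 CPM in macrophage-like barcodes. By these sums NK-like barcodes were the highest in both libraries, but the order of the classes turned with depth and with the weighting of barcodes. At 500 to 2000 UMIs macrophage-like barcodes stood at 20952 CPM and NK-like ones at 3845 CPM in NOD/ShiLtJ (18059 and 3789 CPM in CD1), and at 2000 to 5000 UMIs at 17388 and 6256 CPM (16276 and 7836 CPM in CD1). The median over single barcodes of NOD/ShiLtJ was 13835 CPM in macrophage-like and 11010 CPM in NK-like barcodes. The order of macrophage-like and T-like barcodes also differed between the libraries. Each of 42 of the 81 members measured in all 4 classes was highest by its sum in NK-like barcodes in NOD/ShiLtJ, and 49 in CD1, where 30.4 and 34.1% of all genes were.

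**Figure D1:**
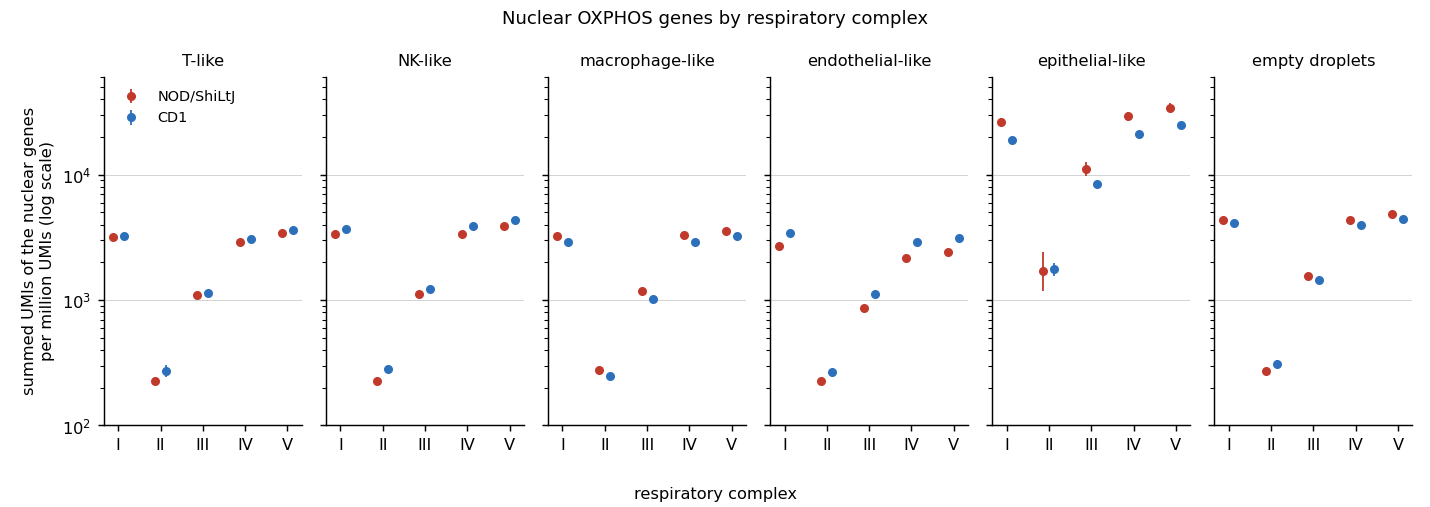
Summed CPM (log scale) of the nuclear genes of complexes I to V (x axis) in 5 classes of barcodes and in empty droplets, NOD/ShiLtJ in red and CD1 in blue, with exact 95% Poisson intervals, mostly smaller than the points. Complex II is the lowest and complex III the next lowest in every panel, and the epithelial-like barcodes lie above all others for each complex.

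Complexes I, IV and V, which have the most subunits, took most of the sum, and complex II the least. In CD1 T-like barcodes complex I took 3261 CPM, complex II 272, complex III 1129, complex IV 3094 and complex V 3645 CPM. In CD1 endothelial-like barcodes the same complexes took 3447, 266, 1116, 2916 and 3108 CPM, so that complex I and not complex V was the highest there. Pseudogenes and gene copies held between 0.07 and 0.20% of the OXPHOS UMIs of the T-like, NK-like, macrophage-like and endothelial-like classes, so the sums rest on the named subunits. Ndufs5, an accessory subunit of complex I with a pseudogene in the same reference, was counted at only 35 and 15 UMIs in the T-like and 27 and 290 UMIs in the endothelial-like barcodes of NOD/ShiLtJ and CD1, and its level is uncertain.

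A few members stood out in the same class in both libraries. Atp5if1, the inhibitor that blocks reverse action of the ATP synthase, was at 272 CPM in macrophage-like barcodes of both libraries, against means of 79.3 CPM over the other classes of at least 50 barcodes in NOD/ShiLtJ and 84.2 CPM in CD1 (log2 ratios 1.78 and 1.69, epithelial-like barcodes left out). It was the leading member of macrophage-like barcodes in both libraries. Ndufa8, an accessory complex I subunit, led the endothelial-like barcodes in both, at 157 CPM against 65.9 and 238 CPM against 82.9 (log2 ratios 1.25 and 1.52). Ndufc2, also of complex I, came next in macrophage-like barcodes, at 179 CPM in NOD/ShiLtJ and 144 CPM in CD1 (log2 ratios 1.08 and 0.43). It was not particular to them, as it also ranked second in endothelial-like barcodes of NOD/ShiLtJ (139 CPM against 92.8, log2 ratio 0.58). NK-like barcodes were led by Atp5f1e (559 CPM), the epsilon subunit of the synthase, in NOD/ShiLtJ and by Cox8a (609 CPM) in CD1. No member of the T-like barcodes exceeded a log2 ratio of 0.63 in NOD/ShiLtJ (Ndufa3) or 0.50 in CD1 (Uqcc5, a complex III assembly factor). When epithelial-like barcodes entered the mean, as in the rule for naming these genes, Atp5if1 still led the macrophage-like barcodes of CD1 but at a log2 ratio of 0.36, and Uqcc3 in place of Ndufa8 led the endothelial-like ones.

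The design sets the disease model NOD/ShiLtJ against the control CD1. In endothelial-like barcodes nearly all nuclear OXPHOS members were lower in NOD/ShiLtJ. The sum was 8567 CPM in NOD/ShiLtJ and 11127 CPM in CD1, a log2 ratio of -0.38 (95% interval -0.39 to -0.36). Of 81 members with a mean of at least 20 CPM, 76 were below 0, where 45.9% of all 6841 genes compared were, and 67 had an interval wholly below 0, where 27.7% had. The median was -0.39, against 0.04 over all genes. Here and below, all genes were not matched to the members for level. Genes with more UMIs have narrower intervals and less scattered ratios, which bears on both kinds of count. Lower by at least 1.5-fold were 11 of the 81, where 4.58% of all genes were, and higher by that fold none, where 5.34% of all genes were. By complex, 8 of 8 members of complex III, 12 of 12 of complex IV, 18 of 18 of complex V, 32 of 35 of complex I and 3 of 4 of complex II were below 0.

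**Figure D2:**
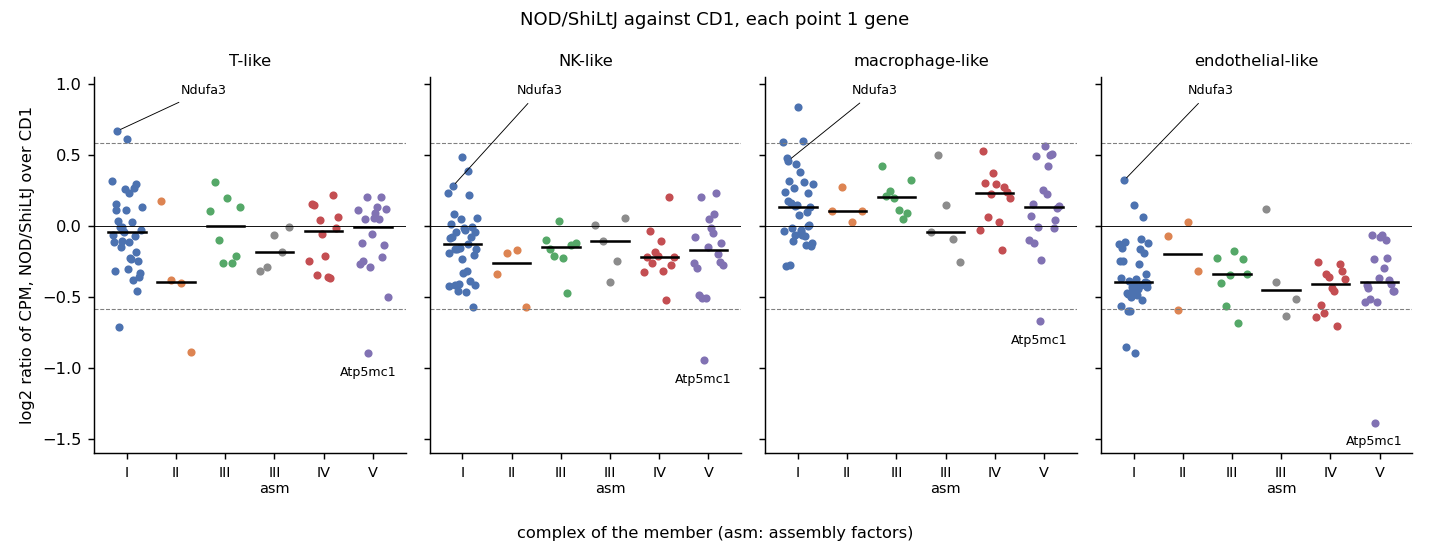
The log2 ratio of CPM in NOD/ShiLtJ over CD1 (y axis) of each member with a mean of at least 20 CPM, by complex (x axis) and class of barcodes, with the median of each complex as a bar and 1.5-fold as dashed lines. Medians lie near -0.4 for complexes I, IV and V in endothelial-like barcodes and above 0 for complexes I to V in macrophage-like ones, and Atp5mc1 is the lowest point of complex V in every panel.

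By role, Atp5mc1, 1 of 3 genes for the membrane ring subunit c of the ATP synthase, was 41.4 CPM in NOD/ShiLtJ and 108 CPM in CD1 endothelial-like barcodes (log2 ratio -1.38, interval -1.58 to -1.19). In complex I, Ndufa6 was 89.7 and 162 CPM (-0.85, interval -0.99 to -0.72) and Ndufb6 was 34.4 and 63.9 CPM (-0.89, interval -1.11 to -0.68), both accessory subunits. The class-leading Ndufa8 was among the 11 too, at -0.60, as were Ndufb10 (-0.60), Cox6a1 (-0.61) and the assembly factor Uqcc3 (-0.63). Complex IV gave Cox7b at 93.3 and 152 CPM (-0.70) and Cox4i1, the ubiquitous form of a regulatory subunit, at 264 and 412 CPM (-0.64, interval -0.72 to -0.56). These genes were low in NOD/ShiLtJ by more than the typical member. Of the catalytic core, Uqcrfs1, the Rieske iron-sulfur protein of complex III, was 30.6 and 49.1 CPM (-0.68), Sdhb, the iron-sulfur subunit of complex II, 51.0 and 76.8 CPM (-0.59), and the synthase subunits Atp5f1a and Atp5f1b were at -0.54 and -0.41. Ndufv1, which binds NADH, was at -0.40, whereas Sdha, the flavoprotein of complex II, was at -0.07 (interval -0.21 to 0.07). Ndufa3 was the only member with an interval above 0 (59.7 and 47.7 CPM, log2 ratio 0.32).

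The lower level in endothelial-like barcodes held in each range of depth. It was 10058 CPM in NOD/ShiLtJ and 13143 CPM in CD1 for barcodes of 500 to 2000 UMIs, 7757 and 10666 CPM for 2000 to 5000, 8480 and 11103 CPM for 5000 to 10000, and 9110 and 11130 CPM above, with log2 ratios between -0.46 and -0.29. Other pathway genes moved with it. Glycolytic genes were lower in sum (817 and 1098 CPM, log2 ratio -0.43) with 10 of 11 members below 0, as were the 7 carriers of ATP, phosphate and protons (652 and 905 CPM, -0.47), respiratory chain assembly factors (-0.20, 13 of 16 below 0) and tricarboxylic acid cycle genes (-0.16, 10 of 12 below 0). Genes of mitochondrial DNA expression and biogenesis were higher (0.21, 5 of 5 above 0). Cytosolic ribosomal protein genes were lower too, at 41742 and 55968 CPM (log2 ratio -0.42). Salivary secretory genes, used to estimate free RNA, summed to 64.2 CPM in NOD/ShiLtJ and 135 CPM in CD1 endothelial-like barcodes, and to 308 and 4693 CPM in empty droplets. The share of free RNA estimated from these levels was 20.8% in NOD/ShiLtJ and 2.89% in CD1, and its part in the result was not tested. With that unequal share of the empty-droplet profile subtracted, the log2 ratio was -0.75. The share depends on the genes used, so this value is uncertain. In NOD/ShiLtJ endothelial-like barcodes and empty droplets, plasma cell markers were at 54.3 and 3099.5 CPM and T cell markers at 96.8 and 1958 CPM. These give smaller shares than the secretory genes. Mural cell markers (22.2 and 27.4 CPM) and Schwann cell markers (2.17 and 3.47 CPM) give larger ones.

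In macrophage-like barcodes the difference had the opposite sign and was smaller. The sum was 11758 CPM in NOD/ShiLtJ and 10550 CPM in CD1 (log2 ratio 0.16, interval 0.14 to 0.17), with 58 of 82 members above 0, against 59.0% of all 6396 genes, and 41 with the whole interval above 0, against 30.7%. The median was 0.14, against 0.07 over all genes. At least 1.5-fold higher were 3 of 82 members (6.82% of all genes) and lower 1 (3.46% of all genes). The 3 were accessory subunits of complex I: Ndufb4 (45.2 and 25.3 CPM, log2 ratio 0.84), Ndufc1 (110 and 72.5 CPM, 0.60) and Ndufa1 (113 and 74.9 CPM, 0.59), and the 1 was Atp5mc1 (91.8 and 146 CPM, -0.67). Cox5a, a nuclear subunit of complex IV, was 228 and 158 CPM (0.53). Both shares of members, 3.66 and 1.22%, were under those of all genes. Depth differed here: the NOD/ShiLtJ barcodes had a median of 3228 UMIs and the CD1 ones 6943 UMIs, and shallow macrophage-like barcodes held more nuclear OXPHOS RNA in both libraries. At 500 to 2000 UMIs the level was 20952 CPM in NOD/ShiLtJ and 18059 CPM in CD1 (log2 ratio 0.21), and at 2000 to 5000 UMIs the log2 ratio was 0.095. At 5000 to 10000 UMIs the level was 8429 and 8609 CPM, where the log2 ratio was -0.03 (interval -0.06 to -0.00091). At 10000 UMIs or more it was 11179 and 10622 CPM (log2 ratio 0.074, interval 0.053 to 0.094). Scaled by the median ratio of all genes the log2 ratio was 0.090 over all depths, and as a mean of the shares of single barcodes 0.28. Salivary secretory genes moved with depth as well, from 739 and 2372 CPM in the shallowest to 256 and 1078 CPM in the deepest barcodes, and their part in the result was not tested.

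**Figure D3:**
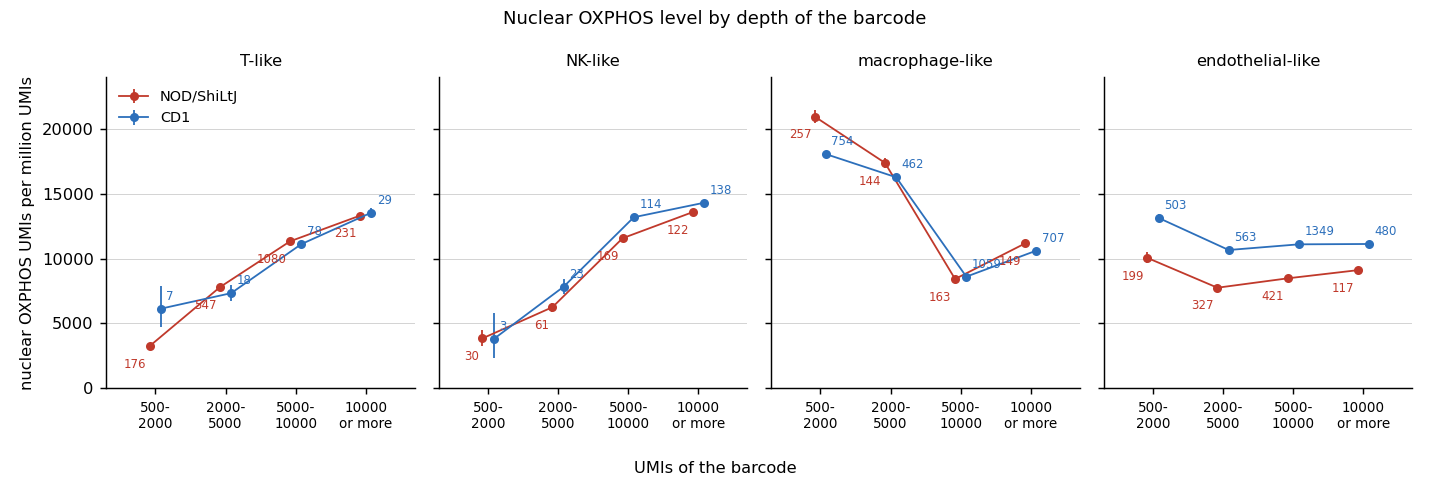
Nuclear OXPHOS CPM (y axis) of barcodes grouped by their own UMIs (x axis), in 4 classes, with exact 95% Poisson intervals and the number of barcodes beside each point. The level rises with depth in T-like and NK-like barcodes, is highest below 5000 UMIs in macrophage-like ones, and in endothelial-like barcodes NOD/ShiLtJ (red) lies below CD1 (blue) in every range.

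In T-like and NK-like barcodes the sums were lower in NOD/ShiLtJ by less than in endothelial-like ones. In T-like barcodes the sums were 11133 and 11686 CPM (log2 ratio -0.07, interval -0.10 to -0.04), at median depths of 6003.5 and 7845.5 UMIs. At 500 to 2000 UMIs the ratio was -0.91, on 176 and 7 barcodes. It was 0.09 at 2000 to 5000 UMIs, 0.03 at 5000 to 10000 and -0.02 above, each with an interval that includes 0. Over all depths it was -0.17 scaled by the median ratio of all genes and -0.13 as a mean of the shares of single barcodes. With the empty-droplet profile subtracted it was -0.22. At least 1.5-fold higher in NOD/ShiLtJ were 2 of 82 members, where 12.7% of all 6572 genes were, and lower 3, where 8.2% were, so that both shares of members, 2.44 and 3.66%, were under those of all genes. The 2 were Ndufa3 (95.2 and 59.8 CPM, log2 ratio 0.67) and Ndufb4 (40.7 and 26.6 CPM, 0.61). The 3 were Atp5mc1 (79.0 and 147 CPM, -0.90), Ndufa6 (107 and 175 CPM, -0.71) and Sdhd (32.9 and 60.7 CPM, -0.88), a membrane anchor of complex II counted at 64 UMIs in CD1. Ndufb4 rests on 28 UMIs there and has copies in the same reference, so its level is uncertain. In NK-like barcodes the sums were 12243 and 13785 CPM (-0.17, interval -0.19 to -0.15), with 65 of 82 members below 0, against 45.8% of all genes. As a mean of the shares of single barcodes the ratio was -0.30. Depth differed here too, at medians of 8140 UMIs in NOD/ShiLtJ and 9892.5 UMIs in CD1. The ratio was -0.32 at 2000 to 5000 UMIs, -0.19 at 5000 to 10000 and -0.07 above. At 500 to 2000 UMIs it was 0.02, on 30 and 3 barcodes. The part of depth was not tested. Atp5mc1 was the only member lower by 1.5-fold (97.1 and 187 CPM, -0.94), where 4.15% of all 6552 genes were, and no member was higher by that fold, where 6.18% were. Ranked by the interval bound nearest 0, Cox7b (-0.52) and Atp5mc2 (-0.51), another subunit c gene, came next, while Sdhd and Ndufs6 had lower ratios (-0.57 each) with wider intervals. The highest by that bound were Ndufc1 (0.39), Atp5f1e (0.20) and Ndufb4 (0.49). Cytosolic ribosomal protein genes were lower in NOD/ShiLtJ in T-like and NK-like barcodes as well (log2 ratios -0.44 and -0.37) and near equal in macrophage-like ones (0.04).

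Certain members had the same sign in all 4 classes, although these share their 2 libraries and are not separate evidence. Of 81 members measured in all 4, 19 were below 0 in each, where 10.8% of all 4583 genes measured in all 4 were, and 2, Ndufa3 and Ndufb4, were above 0 in each, where 24.2% were. Atp5mc1, Ndufa6, Atp5mc2 and Cox7b had intervals below 0 in all 4 classes, as did 2.4% of all genes, and Ndufa3 had intervals above 0 in all 4, as did 5.74%. Atp5mc1 was lower by at least 1.5-fold in each of the 4, with log2 ratios between -1.38 and -0.67, where 0.371% of all genes were. In empty droplets, 4 of these 5 members differed in the same direction: Atp5mc1 was 99.4 CPM in NOD/ShiLtJ and 192 CPM in CD1 (-0.95), Ndufa6 163 and 225 CPM (-0.46), Cox7b 313 and 365 CPM (-0.22) and Ndufa3 126 and 76.8 CPM (0.72). Atp5mc2 was at 264 and 265 CPM there, with an interval of the log2 ratio from -0.13 to 0.12. Between macrophage-like and endothelial-like barcodes, 32 of the 81 members had an interval above 0 in the former and below 0 in the latter, as did 6.92% of all genes.

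The promoters of 3 members with the same sign throughout are shown for their sequence context, from 250 bases before to 50 after the RefSeq start, in the C57BL/6J reference (GRCm38.p6) and not in the strains studied. Of 92 members that are not copies, 71 had an entry in the table by symbol or synonym. Capitals mark the letters GCGCATGC (the core bound by NRF1), CCGGAAGT (an ETS site of the GABPA type) or AAGATGGC (YY1), searched on both strands.
Atp5mc1 (chr11:96075582-96075881, minus strand): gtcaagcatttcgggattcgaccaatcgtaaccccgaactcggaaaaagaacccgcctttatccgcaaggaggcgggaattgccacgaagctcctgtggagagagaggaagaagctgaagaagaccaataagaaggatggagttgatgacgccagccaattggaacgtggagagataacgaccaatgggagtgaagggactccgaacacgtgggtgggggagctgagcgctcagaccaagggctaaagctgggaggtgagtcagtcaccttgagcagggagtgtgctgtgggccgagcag
Ndufa6 (chr15:82354242-82354541, minus strand): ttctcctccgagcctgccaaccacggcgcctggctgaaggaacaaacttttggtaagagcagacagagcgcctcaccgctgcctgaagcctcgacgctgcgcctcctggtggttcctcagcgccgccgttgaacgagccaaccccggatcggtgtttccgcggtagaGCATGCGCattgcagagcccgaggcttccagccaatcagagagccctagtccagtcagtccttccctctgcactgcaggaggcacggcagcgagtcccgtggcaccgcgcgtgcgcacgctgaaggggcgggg
Ndufa3 (chr7:3617123-3617422, plus strand): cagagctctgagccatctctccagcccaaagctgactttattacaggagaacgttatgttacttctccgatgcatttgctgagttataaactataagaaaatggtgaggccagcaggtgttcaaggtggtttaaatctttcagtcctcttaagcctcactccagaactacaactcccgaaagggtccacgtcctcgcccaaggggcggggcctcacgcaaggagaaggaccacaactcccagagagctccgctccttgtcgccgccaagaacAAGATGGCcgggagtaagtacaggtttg
The NRF1 letters occurred in 10 of the 71 members (14.1%) and in 3.05% of 27025 genes with a promoter of the same length, the GABPA letters in 5 (7.04%) and 4.31%, and the YY1 letters in 11 (15.5%) and 3.19%. Any of the 3 occurred in 25 members (35.2%) and 9.91% of all genes. Ndufa6, which was lower throughout, holds 1 match to NRF1, and Ndufa3, which was higher throughout, holds 1 match to YY1. Of the other members named for the same sign, Atp5mc2 (lower) holds the NRF1 letters, and Cox7b (lower) and Ndufb4 (higher) hold no match. A link of motif and direction was not tested. The Atp5mc1 window holds none of the 3. A match describes letters only.

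Between all kept barcodes the level was 10744 CPM in NOD/ShiLtJ and 11485 CPM in CD1, a value that mixes levels within classes with the make-up of each library. With the levels of NOD/ShiLtJ in the classes and the class mix of CD1 the sum would be 10358 CPM, and with the levels of CD1 and the mix of NOD/ShiLtJ it would be 11650 CPM, against 10791 and 11067 CPM for the own mixes of the same classes. Empty droplets, barcodes of 10 to 100 UMIs, held 15700 and 14532 CPM, more than any of the 4 classes compared.

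The mitochondrially encoded genes, 13 protein-coding, 2 ribosomal RNA and 22 transfer RNA rows, differed less between the strains in sum than the nuclear ones did in endothelial-like and macrophage-like barcodes. Their sum in endothelial-like barcodes was 46988 CPM in NOD/ShiLtJ and 48102 CPM in CD1 (log2 ratio -0.03), in macrophage-like 56255 and 58854 (-0.07), in NK-like 50942 and 45438 (0.16) and in T-like barcodes 62410 and 56462 CPM (0.14). The ribosomal RNAs and the protein-coding rows moved apart, and in endothelial-like and T-like barcodes the protein-coding rows of each complex were lower in NOD/ShiLtJ, the direction of the nuclear genes. Ribosomal RNA was higher in NOD/ShiLtJ in T-like (0.54), NK-like (0.45), macrophage-like (0.30) and endothelial-like barcodes (0.15). The summed COX1 to COX3 rows of complex IV were at -0.15, -0.02, -0.19 and -0.19, CYTB of complex III at -0.14, -0.08, -0.40 and -0.30, the complex I rows at -0.24, -0.08, -0.22 and -0.29 and the complex V rows at -0.15, 0.08, -0.20 and -0.15 in the same order. ND1 was lower in all 4 classes, between -0.58 and -0.34, while ND3 was higher in all 4, between 0.17 and 0.57. Nuclear UMIs per mitochondrially encoded protein-coding UMI were 0.355 in NOD/ShiLtJ and 0.332 in CD1 for T-like, 0.414 and 0.462 for NK-like, 0.313 and 0.242 for macrophage-like and 0.381 and 0.428 for endothelial-like barcodes. The ratio was thus higher in NOD/ShiLtJ in T-like and macrophage-like barcodes and lower in NK-like and endothelial-like ones.

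Within a class the nuclear OXPHOS level depended on the mitochondrial share, and in different directions. In NOD/ShiLtJ T-like barcodes it was 12814 CPM of nuclear UMIs at a mitochondrially encoded share of 2.5 to 5%, 11749 at 5 to 10%, 7760 at 10 to 20% and 4445 above 20%. In NOD/ShiLtJ macrophage-like barcodes it was 11353, 14049, 19054 and 15198 over the same ranges. The CD1 library showed the same opposite courses, from 13729 to 2512 in T-like (6 barcodes above 20%) and from 10004 to 16370 at 10 to 20% in macrophage-like barcodes. A high mitochondrial share thus went with little nuclear OXPHOS RNA in T-like and much in macrophage-like barcodes. Median depth moved with it, from 7525 to 1765 UMIs in NOD/ShiLtJ T-like and from 8918 to 1777 UMIs in NOD/ShiLtJ macrophage-like barcodes, and its part was not tested.

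Cycling barcodes, those with at least 5 UMIs over 3 or more cell cycle markers, held more nuclear OXPHOS RNA in the 3 cases with at least 20 of them. In NOD/ShiLtJ, 35 cycling T-like barcodes had 17027 CPM and the other 1999 had 10877 CPM, a 1.57-fold difference (log2 ratio 0.65, interval 0.62 to 0.68). In CD1, 85 cycling macrophage-like barcodes had 13175 CPM and the other 2897 had 10400 CPM (1.27-fold). In NOD/ShiLtJ macrophage-like barcodes, 20 cycling ones stood at 1.18-fold. With 6 cycling barcodes or fewer the direction varied, from 0.837-fold in 6 B-like and 0.977-fold in 4 NK-like barcodes of NOD/ShiLtJ to 1.34-fold in 5 NK-like and 1.65-fold in 2 T-like barcodes of CD1, and the single endothelial-like one of each library was at 0.821-fold (NOD/ShiLtJ) and 0.688-fold (CD1). Mitochondrially encoded RNA was lower in the cycling T-like barcodes of NOD/ShiLtJ and macrophage-like barcodes of CD1, at 0.811-fold and 0.794-fold. These cycling barcodes were deeper, at medians of 13558 against 5962 UMIs and 13963 against 6890 UMIs, and all NOD/ShiLtJ T-like barcodes above 10000 UMIs stood at 13324 CPM.

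In sum, epithelial-like barcodes differed from every other class by the size of their nuclear OXPHOS share. The sum was 103708 CPM in the 6 NOD/ShiLtJ and 75900 CPM in the 56 CD1 barcodes, 6.44 times the mean of the T-like, NK-like, macrophage-like and endothelial-like classes of the CD1 library. Not every barcode shared this: single CD1 barcodes ran from 0.153 to 14.3%, and 46 of the 56 were over 5%. With 6 barcodes, NOD/ShiLtJ was under the minimum of 50 and the strains were not compared. The 10 leading genes of the CD1 class held none of the 11 epithelial markers: they were Fxyd2, Crisp3, Chchd10, S100a1 and 6 kallikreins of the salivary secretory list, products of the ducts, and its salivary secretory genes summed to 34417 CPM. All 11 markers of the epithelial list were detected in CD1 and 6 of 11 in NOD/ShiLtJ.

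**Figure D4:**
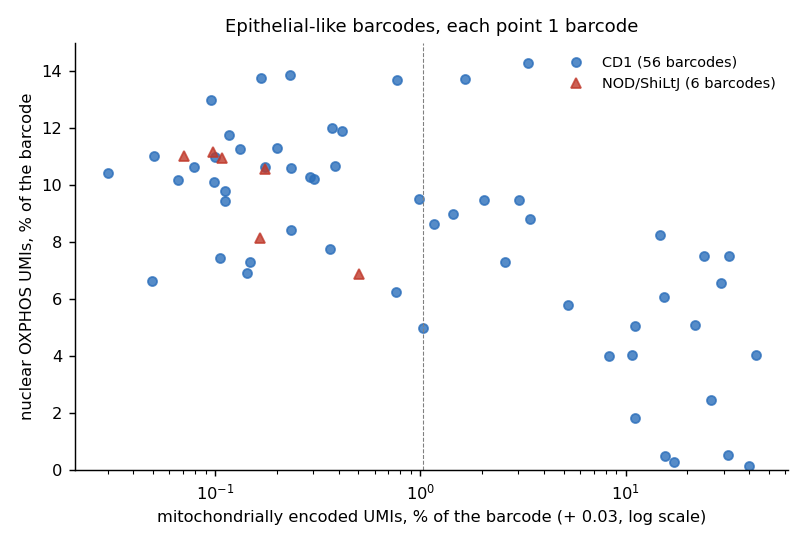
Nuclear OXPHOS UMIs (y axis) against mitochondrially encoded UMIs (x axis, log scale, 0.03 added), both as % of the UMIs of a barcode, for each of the 56 CD1 (blue circles) and 6 NOD/ShiLtJ (red triangles) epithelial-like barcodes. The dashed line marks 1%, and all 6 NOD/ShiLtJ barcodes lie to its left at 6.86% or more on the y axis.

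The excess reached all complexes and most members. In CD1 the summed level over that of the other 4 classes was 5.72-fold for complex I, 6.57-fold for complex II, 7.46-fold for complex III, 6.54-fold for complex IV and 6.99-fold for complex V, but 2.31-fold for the complex III assembly factors. Of 87 members with a mean of at least 20 CPM, 87 were above the mean of the other classes, against 42.5% of all 7188 genes, and 86 by at least 1.5-fold, against 29.4%. This filter used the epithelial-like level too. Members such as Cox8b, Cox7a1, Uqcc6 and Ndufs5 passed only through that level and had to lie above, so these counts are no separate support. A filter without the epithelial-like level, at least 20 CPM in the mean of the other classes, kept 82 members. Their range was from 1.21-fold for Uqcc3 to 11.1-fold for Ndufa11, an accessory subunit of complex I. Far above this range were the isoform genes Cox8b (118 against 0.163 CPM) and Cox7a1 (213 against 0.747 CPM), which the other classes nearly lacked. Cox4i1 was 3941 CPM in NOD/ShiLtJ and 2960 CPM in CD1, Atp5f1b 3008 and 2300, Uqcrfs1 622 and 638, Sdhb 726 and 621 and Ndufv1 415 and 386 CPM. In NOD/ShiLtJ these 5 values rest on 8 to 76 UMIs each. Cox7a2l, a factor in supercomplex assembly, was among the least raised (1.84-fold).
Related lists were raised to differing degrees. Electron carriers and subunits outside the symbol rule, such as Cycs and Cyc1, were at 8.97-fold, above the 6.44-fold of the nuclear OXPHOS sum. The carriers of ATP, phosphate and protons were at 6.85-fold, the tricarboxylic acid cycle at 5.12-fold, glycolysis at 3598 against 1201 CPM and respiratory chain assembly factors at 2.46-fold. Cytosolic ribosomal proteins were at 1.02-fold.

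The mitochondrially encoded rows were not raised to match. They took 1037 CPM in the NOD/ShiLtJ epithelial-like barcodes and 83269 CPM in the CD1 ones. Per barcode, the mitochondrially encoded share was between 0.04 and 0.473% (median 0.107%) in NOD/ShiLtJ, where the nuclear OXPHOS share was between 6.86 and 11.2%. In CD1, 31 of 56 barcodes had a mitochondrially encoded share under 1%, with a median nuclear OXPHOS share of 10.4%, and the other 25 had a median share of 6.09% and a median mitochondrially encoded share of 11.1%. The split at 1% was chosen after the values were seen. In these barcodes nuclear and mitochondrial transcripts of the same complexes were therefore often far apart. UMIs of nuclear genes numbered 2000 in NOD/ShiLtJ against 9 of the mitochondrially encoded protein-coding genes, and 13565 against 10068 in CD1. The CD1 sums mix unlike barcodes. Its deepest one (17936 UMIs) held 2.45% nuclear OXPHOS and 26.1% mitochondrially encoded UMIs. The pooled nuclear OXPHOS share was 10.7% in the 31 CD1 barcodes under 1%, 4.12% in the other 25 and 10.4% in NOD/ShiLtJ. Only 0.295% of T-like, 3.51% of macrophage-like and 6.95% of endothelial-like barcodes of NOD/ShiLtJ had a mitochondrially encoded share under 1%.

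Barcodes with at least 5% of their UMIs in nuclear OXPHOS genes numbered 25 in NOD/ShiLtJ and 134 in CD1. Of these, 6 and 46 were epithelial-like and 16 and 68 had too few marker UMIs to be classed, and 21 and 71 had a mitochondrially encoded share under 1%.

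Isoform genes separated the rarer classes, each with few barcodes. In the 12 mural-like barcodes of each library, which hold markers of mural cells, Ndufa4l2, a hypoxia-inducible relative of the complex IV subunit Ndufa4, took 38 of 41 UMIs of the pair in NOD/ShiLtJ (92.7%, exact binomial interval 80.1 to 98.5%) and 55 of 60 in CD1 (91.7%, interval 81.6 to 97.2%). In endothelial-like barcodes it took 1 of 1656 and 16 of 6964 UMIs, so that the vessel wall classes differed in which of the pair they held. Cox4i2, the form of Cox4 known from lung and oxygen-sensing cells, took 6 of 24 UMIs in NOD/ShiLtJ and 15 of 52 in CD1 mural-like barcodes (25.0 and 28.8%), and 0.441 and 0.311% in endothelial-like ones. The 54 fibroblast-like barcodes of NOD/ShiLtJ showed Ndufa4l2 at 13.6% and Cox6b2, otherwise known from testis, at 16.3% of their pairs (14 of 103 and 13 of 80 UMIs), and the 16 of CD1 at 27.6% and 8.33% (16 of 58 and 2 of 24 UMIs), with overlapping intervals in both. In the macrophage-like barcodes Cox6b2 took 2.08% in NOD/ShiLtJ and 3.38% in CD1, above the 0.420 and 0.129% in endothelial-like barcodes.

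**Figure D5:**
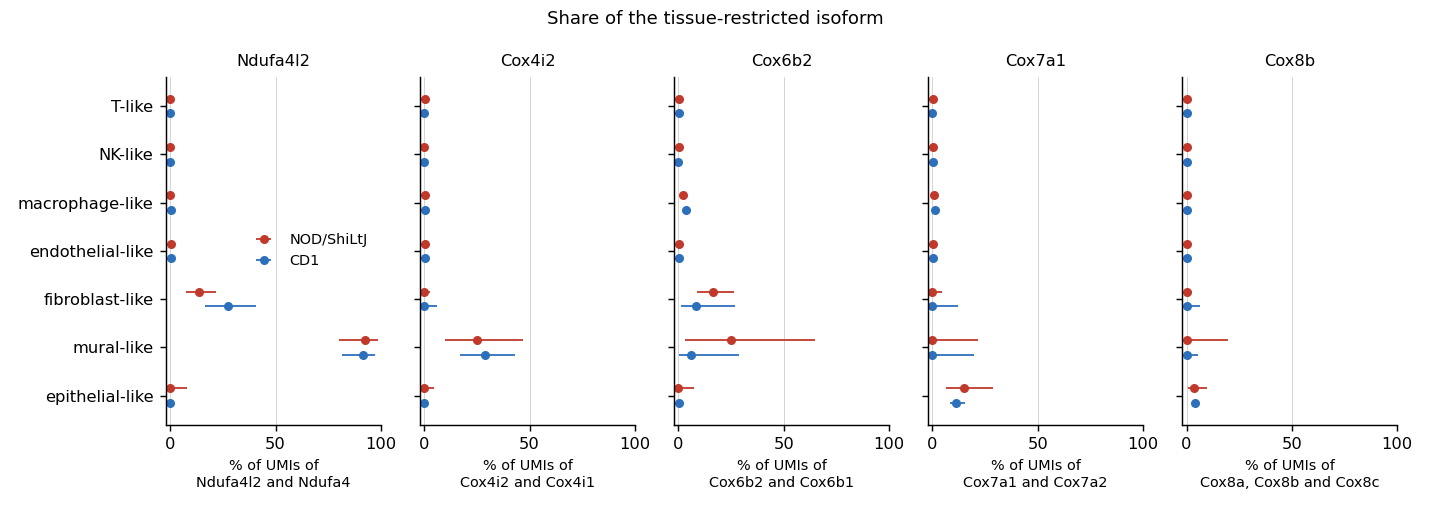
Share of each tissue-restricted isoform in the UMIs of its gene pair or family (x axis, %) in 7 classes (y axis), NOD/ShiLtJ in red and CD1 in blue, with exact 95% binomial intervals. Ndufa4l2 passes 90% in mural-like barcodes of both libraries, and among these 7 classes Cox7a1 and Cox8b are above 3% in epithelial-like barcodes alone.

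The epithelial-like barcodes carried the muscle-type isoforms of complex IV beside the ubiquitous ones. Cox7a1 took 7 of 46 UMIs with Cox7a2 in NOD/ShiLtJ (15.2%, interval 6.34 to 28.9%) and 38 of 335 in CD1 (11.3%, interval 8.15 to 15.2%), where macrophage-like barcodes of CD1 stood at 1.02% and empty droplets at 4.26%. Cox8b took 3 of 87 and 21 of 497 UMIs of the Cox8 genes (3.45 and 4.23%), where endothelial-like barcodes had 1 UMI in each library. In CD1 the Cox8b interval, 2.63 to 6.39%, lay above that of empty droplets, 1.12 to 2.49%, and in NOD/ShiLtJ it was 0.717 to 9.75% on 3 UMIs, all in 1 barcode. Cox6a2 and Cox4i2 had no UMI in these barcodes, which in CD1 allows shares of up to 3.18 and 0.695% of their pairs (exact binomial). Cox7b2 had 2 UMIs in the endothelial-like barcodes of CD1, and Cox8c had none in any class. The promoters of Cox7a1 and Cox8b are given beside that of the ubiquitous Cox8a, in the same build, window and capitals as above.
Cox7a1 (chr7:30183921-30184220, plus strand): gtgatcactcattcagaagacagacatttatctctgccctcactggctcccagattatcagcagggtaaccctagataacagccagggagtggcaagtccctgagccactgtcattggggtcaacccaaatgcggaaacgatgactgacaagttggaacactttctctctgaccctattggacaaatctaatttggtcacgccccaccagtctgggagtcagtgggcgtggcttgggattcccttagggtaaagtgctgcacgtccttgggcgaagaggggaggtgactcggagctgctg
Cox8b (chr7:140900397-140900696, minus strand): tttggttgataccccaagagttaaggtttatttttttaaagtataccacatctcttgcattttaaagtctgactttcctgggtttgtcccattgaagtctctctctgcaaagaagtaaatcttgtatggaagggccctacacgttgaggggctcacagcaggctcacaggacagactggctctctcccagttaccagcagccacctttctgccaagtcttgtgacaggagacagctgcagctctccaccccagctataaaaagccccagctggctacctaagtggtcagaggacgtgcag
Cox8a (chr19:7217567-7217866, minus strand): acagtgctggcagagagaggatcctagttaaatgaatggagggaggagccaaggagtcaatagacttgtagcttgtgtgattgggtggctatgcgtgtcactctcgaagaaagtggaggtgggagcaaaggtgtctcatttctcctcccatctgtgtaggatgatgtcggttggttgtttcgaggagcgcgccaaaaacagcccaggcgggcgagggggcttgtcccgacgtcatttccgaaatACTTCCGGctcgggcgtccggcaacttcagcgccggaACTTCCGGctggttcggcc
Neither the Cox7a1 nor the Cox8b window holds any of the 3 motifs, and the Cox8a window holds 2 matches to GABPA.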

How the data were processed

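Droplet single-cell RNA sequencing was made from 1 NOD/ShiLtJ and 1 CD1 library. Per the submitters' processing notes, reads were handled with Cell Ranger 8.0.0, the build GRCm39, Seurat 5.0.1 and R 4.3.1. The authors deposited unfiltered UMI counts per gene and barcode, whole numbers without normalization, and these counts were used as deposited. The number of pooled mice and the digestion enzymes are given differently by the labels and by the study's methods. The libraries held 52790319 (NOD/ShiLtJ) and 56483149 UMIs (CD1), of which 43439635 and 49420810 were in barcodes of at least 500 UMIs and 300 genes.

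A barcode was classed when at least 75% of its marker UMIs, at least 3 UMIs over 2 or more markers, came from 1 list. Barcodes with mixed markers (1070 and 374), which include doublets, and with too few marker UMIs (374 and 244) were left out of the classes, and removal by Scrublet scores was an alternative. UMIs were summed per class and expressed as CPM. Intervals (95%) were exact Poisson for levels and exact conditional binomial for ratios. As neither strain has a replicate, nothing was tested. Classes with at least 50 barcodes in both libraries and genes with a mean of at least 20 CPM were compared, and a gene was counted when past 1.5-fold. Named members were those past that fold (at most 5 in each direction by the interval bound nearest 0, otherwise 3), core catalytic subunits, tissue-restricted isoforms and the 3 leading members of each class. Other members named, such as Ndufa8 in the strain comparison and those with the same sign in all classes, were chosen after their values were seen. The gene set and lists were chosen with earlier results of these data known. Promoters came from RefSeq (GRCm38.p6), and coordinates of the build of the counts are not used here. Python 3.11.15, numpy 2.4.6, scipy 1.17.1, pandas 2.3.3, scanpy 1.11.5 and matplotlib 3.10.9 were used, and the ratio code was tested on simulated data.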

Additional observations from a re-analysis of the deposited data

Results flagged for a closer look

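The nuclear OXPHOS level of NOD/ShiLtJ over CD1 was above 0 in macrophage-like barcodes (log2 ratio 0.16) and below 0 in endothelial-like barcodes (-0.38), and 32 of 81 members had intervals above 0 in the former and below 0 in the latter, as did 6.92% of all 4583 genes measured in the 4 classes. With 1 library per strain this difference between classes was not tested. The macrophage-like value was -0.03 among barcodes of 5000 to 10000 UMIs and 0.074 among those of 10000 UMIs or more. Empty droplets, which hold free RNA and no cell of their own, held nuclear OXPHOS RNA at 15700 CPM in NOD/ShiLtJ and 14532 CPM in CD1 (log2 ratio 0.11), above the T-like, NK-like, macrophage-like and endothelial-like sums of either library.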

How the results depend on the processing

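No paired analysis was possible because each strain has 1 library, and no replicate could be left out. Epithelial-like barcodes were not compared between strains (6 in NOD/ShiLtJ). In endothelial-like barcodes the log2 ratio of NOD/ShiLtJ over CD1 stayed below 0 under the 11 alternatives run, from -0.75 to -0.37. The values that moved by more than counting error or turned follow, in the order T-like, NK-like, macrophage-like, endothelial-like where all are given, and the cause was not tested. Counts of members past the fold are given here without the share of all genes under the same alternative. They show how far the calls moved, and not a difference of the members from other genes. Scaling by the median ratio of all genes gave -0.17, -0.20, 0.090 and -0.42, and the mean of the shares of single barcodes gave -0.13, -0.30, 0.28 and -0.42. Subtracting the empty-droplet profile gave -0.22 (T-like), -0.19 (NK-like) and -0.75 (endothelial-like), with 4 NK-like and 55 endothelial-like members past 1.5-fold in place of 1 and 11. In that order it took 18.8, 5.23 and 20.8% of the NOD/ShiLtJ UMIs and 1.88, 1.57 and 2.89% of the CD1 ones. These shares rest on the secretory genes alone, so the subtracted values are uncertain. In NOD/ShiLtJ T-like and endothelial-like barcodes, plasma, B cell and macrophage markers would give smaller shares, and Schwann cell markers larger ones. The subtraction was not run with these other lists. The subtraction gave no value in NOD/ShiLtJ macrophage-like barcodes, whose secretory level (382 CPM) exceeded that of the empty droplets (308 CPM). A limit of 10% mitochondrially encoded UMIs gave -0.042 (T-like), -0.13 (NK-like) and 0.14 (macrophage-like), a stricter marker rule -0.13 (T-like) and -0.23 (NK-like) with 9 and 8 members past the fold in place of 5 and 1, at least 1000 UMIs and 500 genes 0.14 and Scrublet 0.18 (both macrophage-like). A mean of at least 5 CPM gave 8 T-like and 2 NK-like members, and median scaling 3 NK-like and 2 macrophage-like members, in place of 4 in the last. Of alternatives chosen after seeing the data, barcodes of 5000 to 10000 UMIs gave 0.028 (T-like) and -0.030 (macrophage-like), both reversed, with 7 NK-like members and 1 macrophage-like member past the fold. Leaving mitochondrially encoded and ribosomal protein genes out of the total gave -0.14 (T-like), -0.23 (NK-like, with 3 members) and -0.40 (endothelial-like).

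The order of classes within a library depended on these choices. Macrophage-like over T-like barcodes of NOD/ShiLtJ (0.08) gave 0.030 at 1000 UMIs, -0.041 at the 10% limit, 0.10 with Scrublet, -0.43 at 5000 to 10000 UMIs, 0.34 with median scaling, 0.041 with the stricter rule, 0.67 as a mean of shares and 0.026 without mitochondrially encoded and ribosomal protein genes. In CD1 (-0.15) the same ratio gave -0.17 at 1000 UMIs, -0.22 at the 10% limit, -0.37 at 5000 to 10000 UMIs, 0.12 with median scaling, -0.24 with the stricter rule, 0.26 as a mean of shares, -0.345 with the empty-droplet profile subtracted and -0.28 without those genes. Endothelial-like over T-like barcodes of NOD/ShiLtJ (-0.38) gave -0.43 at the 10% limit, -0.42 at 5000 to 10000 UMIs, -0.40 without mitochondrially encoded genes in the total, -0.27 with median scaling, -0.41 with the stricter rule, -0.18 as a mean of shares, -0.60 with the empty-droplet profile subtracted and -0.55 without both gene groups. In CD1 (-0.07) it gave -0.10 at the 10% limit, -0.0021 at 5000 to 10000 UMIs, -0.044 with median scaling, -0.17 with the stricter rule, 0.11 as a mean of shares and -0.29 without both gene groups.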

Other observations

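Barcodes with too few marker UMIs to be classed held the muscle-type isoform Cox7a1 at 22 of 190 UMIs of its pair in CD1 (11.6%, interval 7.40 to 17.0%) and 6 of 201 in NOD/ShiLtJ (2.99%, interval 1.103 to 6.38%). Cox6a2, another muscle-type isoform of complex IV, took 169 of 1567 UMIs of its pair in the mixed-marker barcodes of NOD/ShiLtJ (10.8%, interval 9.29 to 12.4%), all in 16 barcodes, and 15 of 739 in those of CD1 (2.03%, interval 1.14 to 3.33%).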
